A study of Mus musculus with 16 samples.

Results

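Promoters that carried acetylated histone H3 lysine 27 (H3K27ac) in 3T3-L1 preadipocytes and no longer did after 48 h of differentiation are described here. The members are 542 H3K27ac islands, an island being a stretch of the genome enriched in a ChIP-seq library. They were selected from the 33704 islands of empty-vector replicate A at 0 h. Each member shares at least 1 bp with an island of replicate B at 0 h, overlaps a GENCODE promoter of the mm9 genome (from 1000 bp upstream to 100 bp downstream of any annotated transcript start), and overlaps no island of either empty-vector library at 48 h. There were 10536 such promoter islands at 0 h, so the members are 5.14% of them, while 9665 were found again in both 48 h lists (called kept promoters below) and 329 in 1 of them. With the lists of replicate B alone the rule selected 883 islands, and with those of replicate A alone 822. The loss between 0 h and 48 h in empty-vector cells is therefore how the members were chosen, and it is given only as a description.

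3T3-L1 is a mouse fibroblast line that becomes adipocytes after a cocktail of methylisobutylxanthine, dexamethasone and insulin (MDI). The H3K27ac libraries came from cells stably transduced with an empty retrovirus or with a retrovirus that expresses V5-tagged SETD5 from a weak LTR promoter, before MDI (0 h) and at 48 h, with 2 biological replicates (A and B) per group. Anti-V5 libraries of SETD5-transduced cells were made at 0 h and 6 h with 2 replicates each, whereas endogenous SETD5 (0 h and 6 h) and H3K4me1 (0 h and 48 h) have 1 library per time point. The labels name the SETD5-V5 virus for the H3K4me1 libraries and give no virus for replicate A of the V5 libraries. The study describes the H3K4me1 cells only as 3T3-L1 preadipocytes, so whether they carried SETD5-V5 is unclear, and H3K4me1 is read here beside both vectors. In all, the 16 lists hold 31292 to 39949 islands for H3K27ac, 6666 to 35573 for SETD5-V5, 49926 to 50276 for H3K4me1 and 2132 to 3293 for endogenous SETD5. Only islands over the caller's threshold are listed, so absence means below that threshold, and the lists give no reads per island. At 0 h, 14 of 15 preadipocyte or fibroblast marker genes, all but *Cd34*, had a promoter island in all 4 H3K27ac lists, against 0 of 5 epithelial and 0 of 5 skeletal muscle markers, 1 of 6 macrophage markers (*Cd14*), 1 of 5 endothelial markers (*Tek*) and 2 of 8 adipocyte markers (*Lep* and *Lpl*).

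H3K27ac is placed by the acetyltransferases p300 and CBP and marks promoters and enhancers in use. H3K4me1 marks enhancers and the flanks of promoters, and remains at many sites after acetylation is gone. SETD5 is a SET-domain protein found with the NCoR-HDAC3 co-repressor complex, which removes acetyl groups. Mammalian promoters fall broadly into CpG-rich ones, typical of genes used by most cells, and CpG-poor ones, typical of genes used in particular cells or after a signal.

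The promoters of 8 members show this sequence context. Each line gives the 250 bases upstream of an annotated transcript start in mm9, 5′ to 3′ along the gene's strand, with none of these bases annotated as exon. Capitals mark consensus matches on either strand to AP-1 (TGANTCA), CRE (TGACGTCA), TEAD (GGAATG), C/EBP (TTGCNNAA), NF-Y (CCAAT), RUNX (TGNGGT), the SRF CArG box (CC, 6 bases of A or T, GG) or the interferon-stimulated response element (ISRE, GAAA and GAAA 2 bases apart). The 2 RUNX matches of Gm10600 and the ISRE matches of Usp18 do not overlap other matches. A match is a description of the letters and not a binding site. Among members at protein-coding genes, ranked by 0 h score, Sorbs2 and Gm7819 come first of those lost with either vector, Ahcyl2 and Samd3 first of those still present at 48 h in SETD5 cells, and Gm10600 first of those with SETD5-V5 in both replicates at 6 h. Usp18, Xaf1 and Oasl2 were added after their values were seen, as the interferon-response genes among the members for which such a window could be printed.
Sorbs2: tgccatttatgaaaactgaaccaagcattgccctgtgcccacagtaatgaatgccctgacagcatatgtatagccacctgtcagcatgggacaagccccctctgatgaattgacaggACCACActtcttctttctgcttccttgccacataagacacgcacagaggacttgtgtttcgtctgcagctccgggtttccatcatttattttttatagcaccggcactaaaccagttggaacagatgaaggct
Gm7819: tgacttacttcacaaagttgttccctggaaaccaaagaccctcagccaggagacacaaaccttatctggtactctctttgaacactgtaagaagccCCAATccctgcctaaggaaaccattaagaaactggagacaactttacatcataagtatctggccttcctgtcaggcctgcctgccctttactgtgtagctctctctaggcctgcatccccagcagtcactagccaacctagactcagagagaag
Ahcyl2: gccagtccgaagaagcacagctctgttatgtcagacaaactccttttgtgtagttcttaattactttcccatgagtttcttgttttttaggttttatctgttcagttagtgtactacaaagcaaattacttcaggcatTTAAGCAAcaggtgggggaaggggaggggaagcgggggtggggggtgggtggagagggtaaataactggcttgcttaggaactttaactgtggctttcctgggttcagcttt
Samd3: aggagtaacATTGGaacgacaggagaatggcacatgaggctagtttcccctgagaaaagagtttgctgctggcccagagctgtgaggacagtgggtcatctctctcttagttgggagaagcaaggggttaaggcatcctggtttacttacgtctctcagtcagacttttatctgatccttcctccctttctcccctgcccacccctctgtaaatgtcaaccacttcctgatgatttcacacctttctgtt
Gm10600: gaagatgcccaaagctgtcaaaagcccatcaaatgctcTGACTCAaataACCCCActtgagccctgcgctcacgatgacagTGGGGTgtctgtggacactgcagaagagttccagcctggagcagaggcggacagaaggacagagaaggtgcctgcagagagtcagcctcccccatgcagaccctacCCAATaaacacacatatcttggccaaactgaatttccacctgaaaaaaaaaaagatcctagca
Xaf1: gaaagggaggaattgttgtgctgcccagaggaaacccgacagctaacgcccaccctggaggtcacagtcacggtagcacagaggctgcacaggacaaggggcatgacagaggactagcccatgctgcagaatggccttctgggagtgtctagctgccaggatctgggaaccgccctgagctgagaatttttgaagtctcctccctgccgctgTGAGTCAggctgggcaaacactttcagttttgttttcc
Oasl2: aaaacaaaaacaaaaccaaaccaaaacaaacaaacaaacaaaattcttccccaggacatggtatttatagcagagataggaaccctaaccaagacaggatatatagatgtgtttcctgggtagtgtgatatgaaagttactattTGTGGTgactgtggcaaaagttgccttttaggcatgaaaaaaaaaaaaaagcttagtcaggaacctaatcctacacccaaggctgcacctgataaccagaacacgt
Usp18: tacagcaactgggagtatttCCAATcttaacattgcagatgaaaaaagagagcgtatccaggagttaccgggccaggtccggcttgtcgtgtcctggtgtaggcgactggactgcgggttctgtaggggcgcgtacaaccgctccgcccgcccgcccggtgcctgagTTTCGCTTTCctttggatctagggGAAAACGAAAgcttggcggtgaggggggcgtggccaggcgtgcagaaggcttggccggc

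Of these windows, the one of *Usp18* (chr6:121195674-121195923) holds 19 CpG dinucleotides and 2 ISRE matches, 83 and 59 bases before the transcript start. The window of *Xaf1* (chr11:72114881-72115130) holds an AP-1 match 38 bases before the start and that of *Oasl2* (chr5:115346693-115346942) a RUNX match, with no ISRE match in either. The windows of *Sorbs2* (chr8:46773437-46773686), *Ahcyl2* (chr6:29820039-29820288) and *Samd3* (chr10:25949263-25949512) hold 4, 2 and 2 CpG dinucleotides. Those of *Gm10600* (chr4:41759329-41759578) and *Gm7819* (chr4:42416657-42416906), on chromosome 4, hold 3 and 0. *Gm7819* is on the minus strand and the other 7 genes are on the plus strand.

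The members were CpG-poor. Over the 767 transcript starts inside members, the median ratio of observed to expected CpG in 300 bases (250 upstream and 50 downstream of the start) was 0.33, with quartiles of 0.17 and 0.55. At the 29999 starts inside kept promoters it was 0.80 (quartiles 0.61 and 0.94), and at all 86872 annotated starts 0.41. A ratio of 0.6 or more was reached by 21.8% of member starts, 75.7% of kept starts and 37.1% of all starts. Median GC content was 52.3%, 62.0% and 53.3%. With 1 start per island, the median was 0.27 in 448 members and 0.79 in 9462 kept promoters. The remaining 94 members overlap a promoter window without holding a start, and enter neither these values nor the consensus shares below. A start lay inside 82.7% of members, 96.9% of all tested promoter islands and 97.9% of kept promoters. Several starts can share a member, so the CpG values describe the set and carry no test.

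**Figure D1:**
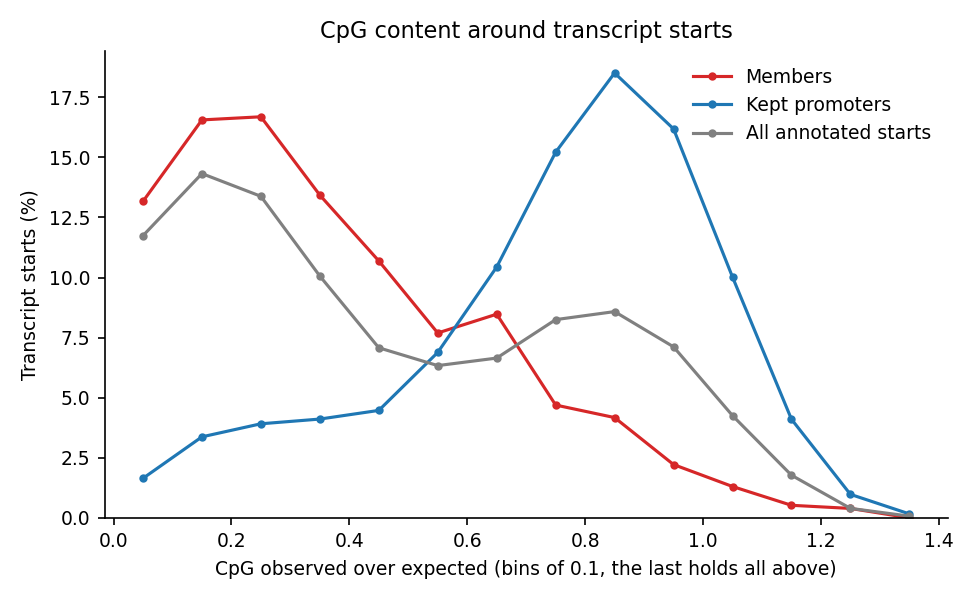
CpG observed over expected (x axis, bins of 0.1) in the 300 bases around transcript starts, as percent of starts (y axis). Member starts peak at low ratios with a median of 0.33, starts in kept promoters have a median of 0.80, and all annotated starts have a first peak below 0.2 and a second between 0.8 and 0.9.

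For AP-1, TEAD and C/EBP, members and kept promoters differed less among CpG-poor starts than among all starts. An AP-1 match was found at 69 of 767 member starts, 4.27% of kept starts and 6.91% of all starts. Below a CpG ratio of 0.6 the shares were 9.67% of member starts, 8.52% of kept starts and 9.06% of all starts. TEAD matches were at 17.5% of member starts against 10.8% of kept and 13.8% of all starts, and below the same ratio at 19.5%, 15.6% and 16.5%. C/EBP matches were at 13.0%, 7.23% and 9.86%, and below that ratio at 14.8% of member starts and 10.6% of kept starts. The cyclic AMP response element was rarer at member starts (0.782%) than at kept starts (3.41%) or all starts (1.76%), but below a ratio of 0.6 the shares were 0.833%, 1.26% and 0.606%, with members no longer below all starts. NF-Y was at 35.5% of member starts, 35.0% of kept and 35.5% of all starts, and RUNX at 41.6%, 42.0% and 45.6%. Below a ratio of 0.6, NF-Y was at 33.3%, 37.0% and 36.5%. RUNX was there at 41.7% of member starts, below the 49.1% of kept and 48.7% of all starts. The CArG box was at 1.17% of member starts and 1.13% of kept starts. The E-box (CANNTG) was at 74.4% of member starts, 59.7% of kept and 72.0% of all starts, and below a ratio of 0.6 at 79.3%, 74.7% and 80.2%.

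Member islands were about as long as other promoter islands at 0 h and ranked lower by score. Their median length was 2400 bp (200 to 12000 bp), against 2600 bp for kept promoters. Their scores, the caller's measure of enrichment, had a median percentile of 33.4 within the replicate A list and 35.8 within the replicate B list, while those of kept promoters were at 72.4 and 71.3. Of 542 members, 404 were at or below the median score of their list. Among the 2822 tested promoter islands at or below that median 14.3% were members, and among the 7714 above it 1.79% were. Islands outside promoters that were lost in the same way (7444 of 20028, or 37.2%) had a median length of 2400 bp and a median percentile of 33.8, close to the members. At the edge of the rule, 3 members ended 200 bp from a 48 h island, and 7 promoter islands were left out for an overlap of 200 bp. The median distance from a member to the nearest empty-vector island at 48 h was 16600 bp, and 120 members (22.1%) had one within 5000 bp.

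**Figure D2:**
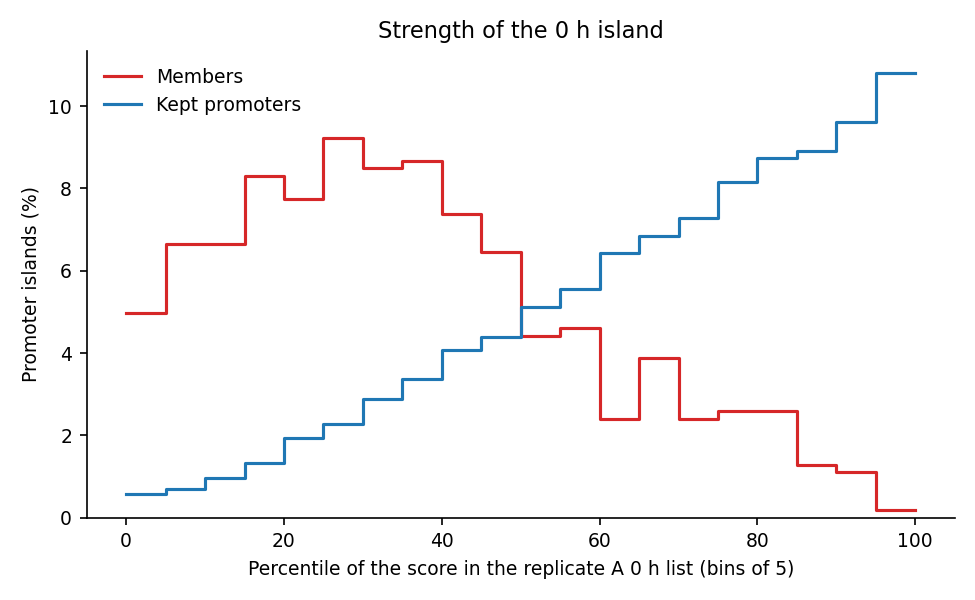
Percentile of the island score within the empty-vector replicate A list at 0 h (x axis, bins of 5) as percent of the 542 members and of the 9665 kept promoters (y axis). Members lie at low percentiles (median 33.4) and kept promoters at high ones (median 72.4).

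Not all of these promoters belong to protein-coding genes. Protein-coding starts were at 389 members, and the other 153 (28.2%) were at pseudogenes (50), small RNAs such as U6, U1 and U7 copies (49), processed transcripts (39), lincRNAs (14) and 1 further type. Of all tested promoter islands, 7.17% had no protein-coding start. The 389 members are at 385 protein-coding genes, which are 3.74% of the 10300 protein-coding genes with a tested promoter island. Of these 385 genes, 256 (66.5%) had no empty-vector island at 48 h at any annotated promoter. In 117 (30.4%) a promoter window had an island in both 48 h lists, and in 12 one had an island in a single list. The most upstream promoter of the gene overlapped a member in 227 genes (59.0%), a share not counted for genes without a member. A member thus stands for a promoter, and 117 genes had an island at 48 h in one of their promoter windows, outside the member. Whether that window was acetylated at 0 h was not read, and it can be one that the member overlaps in part. ChIP-seq of a culture does not tell fewer acetylated cells from less acetylation per cell.

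In SETD5-transduced cells the members carried H3K27ac before differentiation and a large part of them still did at 48 h. At 0 h, 482 members (88.9%) had an island in replicate A and 455 (83.9%) in replicate B. At 48 h the numbers were 229 (42.3%) and 232 (42.8%). The share was 86.4% ± 3.52 at 0 h and 42.5% ± 0.391 at 48 h (SD, n = 2), a difference of 43.9 ± 3.91 percentage points. The 0 h and 48 h libraries did not overlap, and the exact permutation test over the 4 libraries gave p = 0.333 (two-sided), the smallest p that 2 against 2 allows. With replicate B alone in the rule and the readout the difference was 26.3 points (883 members), and with replicate A alone 39.9 points (822 members). Kept promoters stood at 99.1% and 99.4%, and those at or below the median score at 96.2% and 98.4%. Lost islands outside promoters went from 85.2% ± 2.55 to 29.5% ± 1.76. By the study's read totals, SETD5 replicate A was sequenced more deeply at 0 h than at 48 h, and replicate B slightly less deeply. The part of depth in the difference was not tested.

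Taken one by one, 443 members (81.7%) were in both SETD5 lists at 0 h, against 97.4% of all tested promoter islands. At 48 h, 194 members (35.8%) were in both SETD5 lists, 73 in 1 list and 275 in neither. For all tested promoter islands 95.2% were in both and 3.25% in neither. The members in neither list make 50.7% (exact Clopper-Pearson 95% interval 46.4% to 55.0%, which treats islands as independent). Both SETD5 lists at 0 h and neither at 48 h was the pattern of 201 members (37.1%), against 2.30% of all tested promoter islands. These 201 are called lost with either vector, and the 194 in both 48 h lists retained with SETD5. The retained class does not require the SETD5 lists at 0 h, and 181 of the 194 were in both of them.

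Most retained islands were shorter at 48 h than at 0 h. Of the 181 members present in both SETD5 lists at both times, 144 had a shorter island at 48 h than at 0 h in replicate A and 151 in replicate B, with median changes of -800 bp and -1000 bp. At kept promoters 45.3% and 49.5% were shorter and the median change was 0 bp. The median length of the 194 retained islands at 48 h was 1400 bp in replicate A and 1500 bp in replicate B, and their median score percentiles were 23.5 and 26.6 within those lists. The retained members thus passed the threshold at 48 h among the weaker islands of their libraries.

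The number of islands listed at 48 h differed between the vectors. The SETD5 lists at 48 h hold 39068 and 39451 islands and the empty-vector lists 31292 and 33131. With every H3K27ac list held to its 31292 highest-scoring islands, 471 members were found, and 26.2% ± 1.05 (SD, n = 2) of them had a SETD5 island at 48 h in place of 42.5%. The members in neither SETD5 list then made 67.1%. The same rule was also applied with the vectors exchanged, a choice made after seeing the data. It selected 385 of 10898 SETD5 promoter islands (3.53%), and 8.57% ± 0.367 of these had an island in the empty-vector lists at 48 h. With lists of equal length, 410 were selected and that share was 19.0% ± 2.07. By the study's account, both SETD5 libraries of the later time point were also sequenced more deeply than the empty-vector ones, and the part of depth in the retention was not tested.

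**Figure D3:**
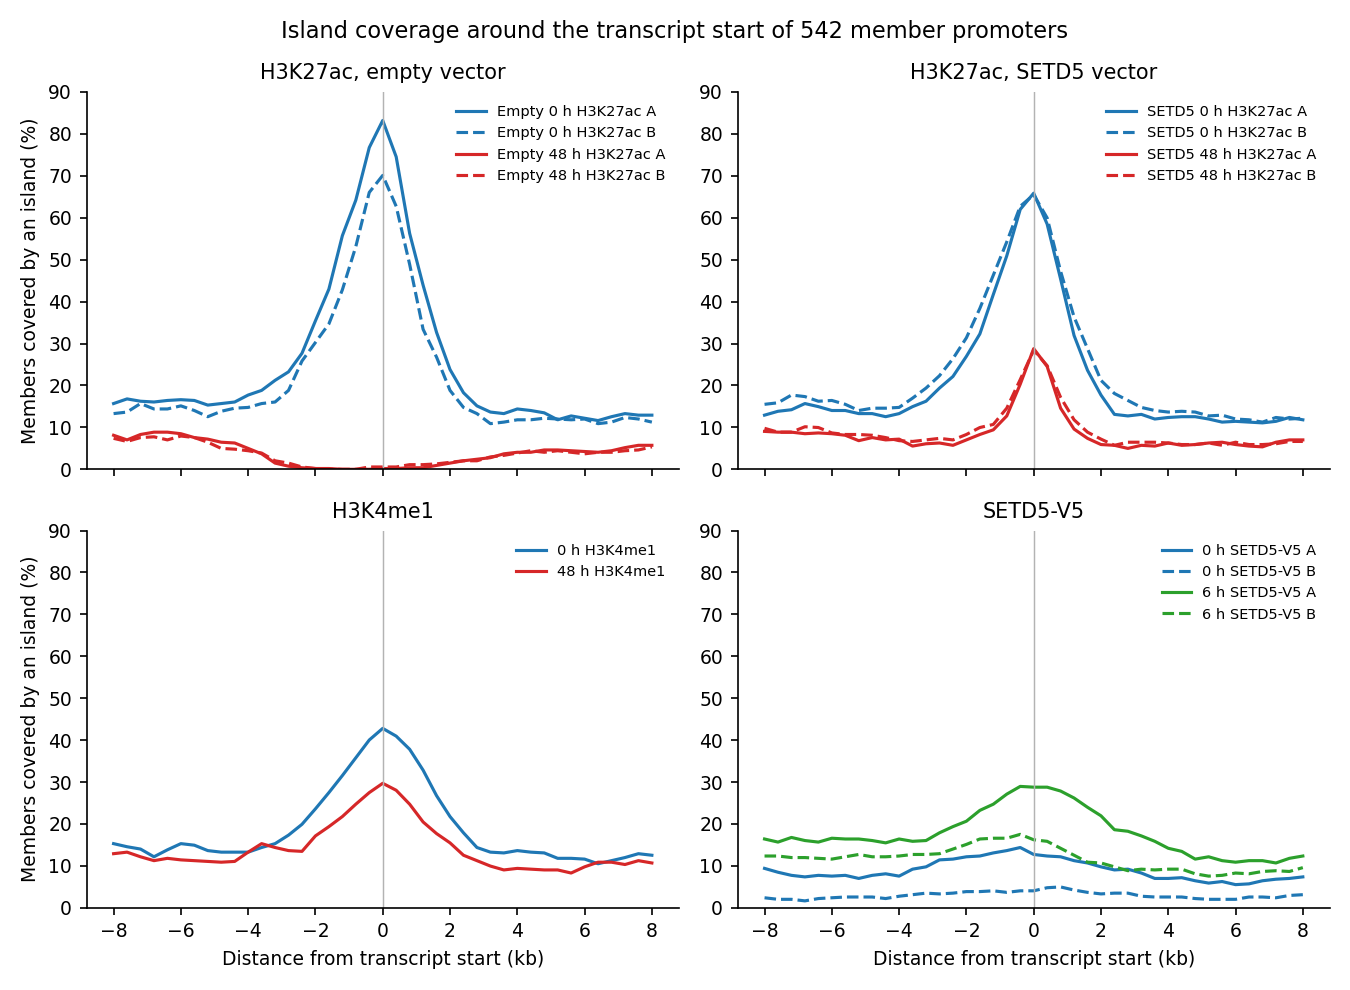
Percent of the 542 members (y axis) covered by an island at each distance from the transcript start nearest the middle of the member (x axis, kb, direction of transcription to the right), with 1 line per library. In SETD5 cells the share covered at the start was 65.9% and 65.5% at 0 h and 28.8% and 28.4% at 48 h, and H3K4me1 covered 42.8% at 0 h and 29.7% at 48 h.

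The lost and the retained members also differed in CpG content. Starts in the 201 members lost with either vector had a median CpG ratio of 0.26, and 11.7% of them reached 0.6. Starts in the 194 retained members had a median of 0.46, and 32.3% reached 0.6. With 1 start per member the medians were 0.23 and 0.33. The retained class included 147 members at protein-coding genes (75.8%) and the lost class 136 (67.7%). Their 0 h scores were close, with median percentiles of 37.1 (lost) and 36.6 (retained) in empty-vector replicate A and 39.2 and 35.9 in replicate B.

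The highest-ranking member of a named gene outside chromosome 4 was at *Sorbs2*, which codes for an adaptor of actin stress fibres. The island at chr8:46771001-46783000 lies inside the gene over 2 of its 29 annotated starts. It was 12000 bp and 11400 bp long at 0 h in empty-vector replicates A and B and absent at 48 h. In SETD5 cells it was 9600 bp and 7400 bp at 0 h and again absent at 48 h. SETD5-V5 islands there were 8400 bp and 2800 bp long at 0 h and 12600 bp and 11400 bp at 6 h. H3K4me1 went from 5600 bp to 1600 bp. Both vectors show the same order, long acetylated islands at 0 h and none at 48 h, and *Sorbs2* is 1 of 2 genes with 3 members, the other being *Lmo7*.

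*Cdh3*, which codes for P-cadherin, was lost with either vector. Its member (chr8:109034201-109038200) covers the start of the gene. H3K27ac islands at 0 h were 4000 bp and 13400 bp with empty vector and 14000 bp and 14800 bp with SETD5, and none was listed at 48 h. A SETD5-V5 island was present in replicate A only, 2800 bp at 0 h and 19000 bp at 6 h. The H3K4me1 island of 1200 bp at 0 h was gone at 48 h.

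Another member lost with either vector lies in the complement locus on chromosome 17 (chr17:35016401-35024000). It covers starts of *C2*, a complement protease, of *Zbtb12* and of *Gm20547*, and overlapping starts cannot be told apart. H3K27ac islands were 7600 bp and 7800 bp at 0 h with empty vector, 5000 bp and 3000 bp with SETD5, and absent at 48 h with both. SETD5-V5 appeared at 6 h only, with islands of 5000 bp and 3200 bp. H3K4me1 stayed, at 3000 bp and 3400 bp. *C2* and *Zbtb12* each had another promoter with an island in both empty-vector lists at 48 h.

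Among the retained members, *Ahcyl2*, related to adenosylhomocysteinase, had an internal start with islands of 10400 bp and 6600 bp at 0 h with empty vector and 6200 bp and 8200 bp with SETD5. At 48 h the SETD5 islands were 2000 bp and 2800 bp. SETD5-V5 was absent at 0 h and present at 6 h with 4600 bp and 2000 bp. Another *Ahcyl2* promoter had islands in both empty-vector lists at 48 h, so the loss here is of an inner start.

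*Samd3*, a gene of the sterile alpha motif family with a single annotated start, had islands of 8400 bp and 4200 bp at 0 h with empty vector and 3400 bp and 3800 bp with SETD5. The SETD5 islands at 48 h were 1800 bp and 2400 bp. SETD5-V5 was listed only at 6 h (8600 bp and 5800 bp), and H3K4me1 at neither time. *Atp6v0a4*, a subunit of the vacuolar proton pump, went from 3600 bp and 3800 bp to 1000 bp and 800 bp in SETD5 cells, and its SETD5-V5 islands from 3000 bp and 2800 bp at 0 h to 7800 bp and 6000 bp at 6 h. *Mylk3*, a myosin light chain kinase, went from 2000 bp and 3000 bp to 1400 bp and 1200 bp. *D930014E17Rik* and *Ttc18* held SETD5 islands of 1800 bp to 3000 bp at 48 h and no SETD5-V5 island in any of the 4 libraries. The island of each of these 6 genes was shorter at 48 h than at 0 h in both SETD5 replicates.

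**Figure D4:**
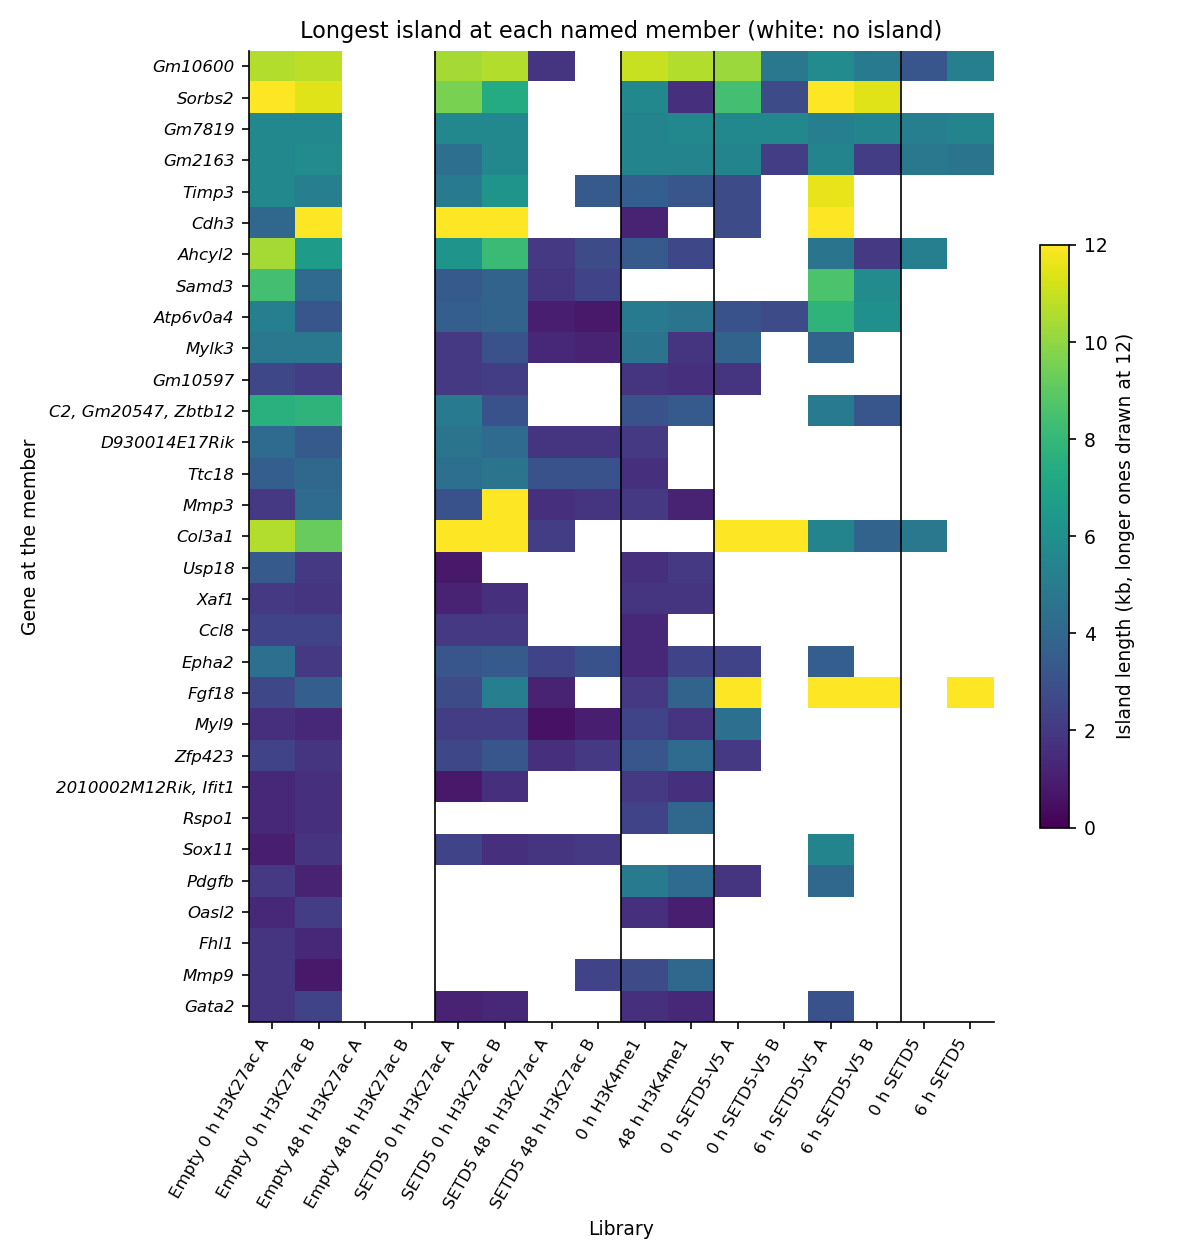
Longest island (color, kb) at each named member (rows) in the 16 libraries (columns), white where no island overlaps the member and one color for lengths of 12 kb and more. The empty-vector columns at 48 h are white by the rule, and the SETD5 columns at 48 h are filled for retained genes such as *Ahcyl2*, *Samd3* and *Mmp3*.

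Part of the top ranks is a block of duplicated genes on chromosome 4. It holds 12 members between chr4:41718601 and chr4:42728400, among them *Gm10600*, *Gm7819*, *Gm2163* and *Gm10597*. The members of *Gm7819* and *Gm2163*, aligned at their transcript starts, are identical over 5476 of 5476 bp, so short reads cannot be assigned to one of them. At *Gm7819*, islands of 5200 bp to 5600 bp were listed for H3K27ac at 0 h, H3K4me1, SETD5-V5 and endogenous SETD5 alike. The *Gm2163* member had islands in the same lists. Of the 12 members, 6 had an endogenous SETD5 island at 0 h and 5 at 6 h, out of 17 and 17 among all members. These values are uncertain. Without the 12 members, both replicates listed SETD5-V5 at 22 of 530 members (4.15%) at 0 h and at 104 (19.6%) at 6 h. Of those 104, 49 (47.1%) were retained with SETD5 and 41 were in neither SETD5 list at 48 h. Endogenous SETD5 without the block is given below.

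SETD5-V5 was found at fewer members than kept promoters in each of the 4 libraries. At 0 h, 114 members (21.0%) overlapped a SETD5-V5 island in replicate A and 34 (6.27%) in replicate B. At 6 h there were 207 (38.2%) and 132 (24.4%). The share was higher at 6 h in both replicates, 31.3% ± 9.78 against 13.7% ± 10.4 (SD, n = 2), a difference of 17.6 ± 0.652 points (exact permutation p = 0.333, two-sided, the smallest possible). The SETD5-V5 lists are far longer at 6 h (35573 and 27220 islands) than at 0 h (16054 and 6666). With each held to its 6666 highest-scoring islands and the H3K27ac lists held to equal length too, the difference was 0.318 ± 1.65 points (exact permutation p = 1.00), with replicate A at 7.64% and 9.13% and replicate B at 7.01% and 6.16%, so the higher share at 6 h was not seen in both replicates. At kept promoters the share went from 28.6% ± 19.0 to 67.5% ± 22.1, and at those at or below the median score from 9.32% ± 8.31 to 43.9% ± 24.8. The 404 members at or below the median score had shares of 15.8% and 4.46% at 0 h, against 15.2% and 3.44% of these low-score kept promoters, and of 33.9% and 20.5% at 6 h, against 61.4% and 26.3%.

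Both replicates together listed SETD5-V5 at 27 members (4.98%) at 0 h, against 13.7% of all tested promoter islands, and at 109 members (20.1%) at 6 h, against 49.0%. Among kept promoters at or below the median score the 6 h share was 25.1%, and among lost islands outside promoters 1764 of 7444 were in both lists. Of the 109 members with SETD5-V5 in both replicates at 6 h, 49 were retained in both SETD5 lists at 48 h and 45 (41.3%) were in neither. Of the 312 members with SETD5-V5 in neither replicate, 95 (30.4%) were retained and 178 (57.1%) were in neither list. The same order held at or below the median score (41.8% against 29.5% retained) and above it (21 of 42 against 21 of 61). At lost islands outside promoters it was 39.1% against 14.8%. Members that overlap a V5 island and those that do not are not replicates, and this difference was not tested.

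Endogenous SETD5 was rare at members. Its islands overlapped 17 members (3.14%) at 0 h and 17 at 6 h, against 3.88% and 12.4% of all tested promoter islands. Without the chromosome 4 block the numbers were 11 and 12 of 530 members. At kept promoters the share was 3.93% at 0 h and 13.2% at 6 h, and at those at or below the median score 1.65% and 4.73%. The 404 members at or below that score were at 1.73% and 2.48%, and lost islands outside promoters at 0.551% and 0.658%. Each value is from 1 library, without a replicate check.

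H3K4me1 was common at the members at 0 h and was listed at fewer of them at 48 h. An H3K4me1 island overlapped 343 members (63.3%, exact 95% interval 59.1% to 67.4%) at 0 h, against 53.4% of all tested promoter islands. At 48 h it overlapped 250 (46.1%, 41.9% to 50.4%), against 50.8%. The mark was listed at both times at 224 members (41.3%, against 42.2% of all tested promoter islands) and at 0 h only at 119. It was listed at 48 h only at 26 (4.80% against 8.55%) and at neither time at 173 (31.9% against 38.0%). H3K4me1 at 0 h only made 22.0% of members and 11.2% of all tested promoter islands. Among lost islands outside promoters it made 30.9%, and H3K4me1 went from 60.4% at 0 h to 32.5% at 48 h. The lower share at 48 h is thus not particular to members. At kept promoters the shares were 52.7% and 51.1%, and 37.4% and 38.7% at or below the median score. Of the 201 members lost with either vector, 144 (71.6%) had H3K4me1 at 0 h and 98 (48.8%) at 48 h. Of the 194 retained members, 116 (59.8%) had it at 0 h and 93 (47.9%) at 48 h. The intervals cover the counting of islands only, since each time point is 1 library.

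**Figure D5:**
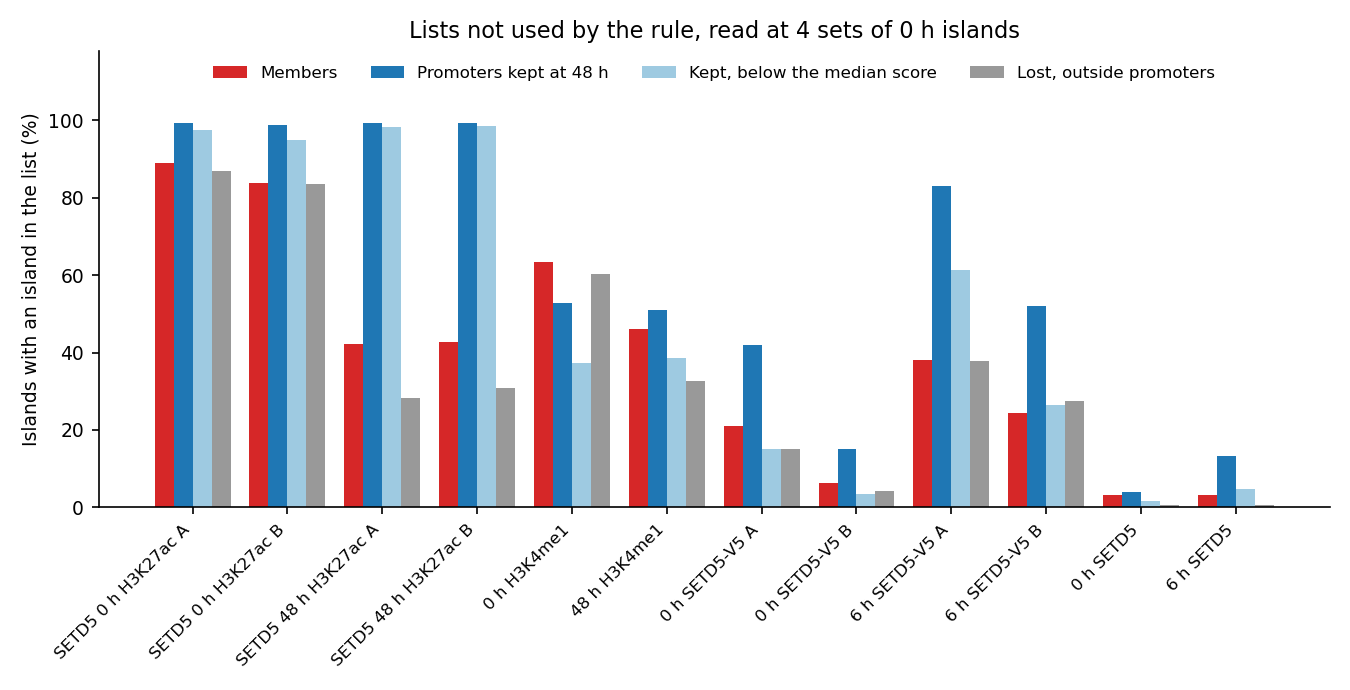
Percent of 0 h islands (y axis) that overlap an island of each of the 12 lists the rule did not use (x axis), for the 542 members, the 9665 kept promoters, the 2179 of these at or below the median score and the 7444 lost islands outside promoters. Members resemble lost islands outside promoters in H3K27ac of SETD5 cells and in H3K4me1 at 0 h more than they resemble kept promoters.

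The gene lists held members at about the share of protein-coding genes as a whole. Of 15 gene lists with 685 annotated genes, 464 genes had a tested promoter island and 18 of these had a member (3.88%, against 3.74% of protein-coding genes). The TGF-beta and BMP list (42 genes with a tested promoter island), YAP and TEAD targets (24), AP-1 factors (15), Hox genes (15), cell cycle genes (39), adipocyte genes (27) and glucocorticoid or cyclic AMP responsive genes (27) had 0 members. The extracellular matrix list had 4 of 61, growth factors and receptors 3 of 47, anti-adipogenic factors 2 of 30, SRF and actin genes 2 of 38, and the Wnt, mesenchymal transcription factor and chemokine lists 1 each of 24, 40 and 23. The interferon response list had 4 of 27 (14.8%), the highest share of the 15 lists. The lists were written with earlier results of these data known and carry no test.

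Among matrix genes, *Timp3*, which codes for an inhibitor of metalloproteinases, lost the island at all 4 of its annotated starts. The island at chr10:85761401-85767000 was 5600 bp and 5200 bp at 0 h with empty vector and 5000 bp and 6200 bp with SETD5. At 48 h an island of 3400 bp was listed in SETD5 replicate B and none in replicate A. *Mmp3*, the metalloproteinase stromelysin-1, was retained, with 1600 bp and 1800 bp at 48 h in SETD5 cells after 3000 bp and 12000 bp at 0 h. *Col3a1*, type III collagen, has its member at inner starts, and another of its promoters had islands in both empty-vector lists at 48 h. At the member, SETD5-V5 islands of 50400 bp and 49800 bp at 0 h became 5400 bp and 3800 bp at 6 h. *Mmp9*, a gelatinase, had an H3K27ac island of 2400 bp at 48 h in SETD5 replicate B and none in the other 3 SETD5 libraries.

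Among regulators of adipocyte fate, *Gata2*, a factor that holds preadipocytes undifferentiated, had a member over its most upstream annotated start. Islands were 1800 bp and 2400 bp at 0 h with empty vector and 1200 bp and 1400 bp with SETD5, and none was listed at 48 h with either. Another *Gata2* promoter had islands in both empty-vector lists at 48 h. *Zfp423*, a preadipocyte commitment factor, had a member at inner starts that was retained with SETD5 (1600 bp and 2000 bp at 48 h). Another of its promoters had islands in both empty-vector lists at 48 h. *Sox11*, a developmental transcription factor, was retained with 1800 bp and 2000 bp, while *Rspo1*, a Wnt agonist, had no island in any of the 4 SETD5 lists.

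Of the growth factor and receptor genes, *Epha2*, an ephrin receptor, was retained with SETD5 at 2400 bp and 3000 bp at 48 h. *Fgf18*, a fibroblast growth factor, had 1200 bp in replicate A only. SETD5-V5 covered *Fgf18* with 20400 bp and 18800 bp at 6 h, and in replicate A already with 19800 bp at 0 h, and endogenous SETD5 with 17600 bp at 6 h. *Pdgfb*, a platelet-derived growth factor chain, had no SETD5 island of H3K27ac at either time. Of the cytoskeletal genes, *Myl9*, a myosin regulatory light chain, was retained with small islands (600 bp and 1000 bp), and *Fhl1*, a LIM-domain protein, was in none of the 12 lists outside the rule. The chemokine gene *Ccl8* was lost with either vector.

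The 4 interferon-response genes ranked 186 to 434 among the 542 members by 0 h score. *Usp18*, which removes the ubiquitin-like protein ISG15, had islands of 3400 bp and 2000 bp with empty vector at 0 h, 800 bp in SETD5 replicate A and none in replicate B. *Xaf1*, an interferon-induced promoter of apoptosis, had 2000 bp and 1800 bp with empty vector and 1200 bp and 1600 bp with SETD5. *Ifit1*, which binds foreign RNA, had 1400 bp and 1600 bp with empty vector and 800 bp and 1600 bp with SETD5, in a member it shares with *2010002M12Rik*. *Oasl2*, of the oligoadenylate synthetase family, had 1400 bp and 2200 bp with empty vector and none with SETD5. None of the 4 had an island at 48 h with either vector or SETD5-V5 in any library, and all 4 had H3K4me1 at both times.

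After these values were seen, the family was widened to 86 annotated genes picked by symbol, without a check that interferon induces each of them. Of these, 51 had a tested promoter island and 14 had a member (27.5%, against 3.74% of protein-coding genes, for genes picked with these values known), among them *Gbp4*, *Gbp7*, *Gbp9*, *Trim12c*, *Trim30d*, *Ddx60*, *Sp100*, *Apol9a* and *Apol9b*. In SETD5 cells 11 and 10 of the 14 had an island at 0 h and 3 and 3 at 48 h, against 86.4% and 42.5% of all members on average. H3K4me1 was at 9 at 0 h and at 6 at 48 h, against 63.3% and 46.1% of all members. *Apol9a* was the only 1 in both SETD5 lists at 48 h (1600 bp and 1600 bp), and it has the near copy *Apol9b*, so both are uncertain. The other 37 genes with a tested promoter island, among them *Irf9*, *Isg15*, *Ifit3* and *Mx1*, had no member. An ISRE match was found at 46 of 767 member starts, 3.03% of kept starts and 3.99% of all starts, and below a CpG ratio of 0.6 at 42 of 600, 5.04% and 4.88%.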

How the data were processed

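The authors mapped the ChIP-seq reads to mm9 and called enriched islands in each library separately with SICER, in windows of 200 bp, without pooling replicates. The submitters' processing notes name Bowtie2, deepTools and SICER. Each deposited list gives an island's chromosome, start, end and score, and this deposited score was used here only to rank islands within a list. Read counts per island are absent from the lists, which leaves the depth behind an island unknown and no counting error of reads can be stated. The study states total reads per library, which are cited here for sequencing depth but entered no calculation.

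Groups were taken from the sample labels. Islands were overlapped by at least 1 bp, and promoters, gene names and sequences come from the NCBIM37 reference (mm9) with GENCODE vM1. The islands of all 22 chromosomes end within the reference. Shares were compared between time points over libraries with the exact permutation test (scipy 1.17.1, numpy 2.4.6, matplotlib 3.10.9, Python 3.11.15), since members are not replicates. H3K4me1 and endogenous SETD5 have 1 library per time point and no test.

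Members were ranked by the mean of their score percentiles in the 0 h lists of replicates A and B. Only members at protein-coding genes were eligible to be named. Of these, named were the 10 highest, the 6 highest lost in both vectors, the 6 highest in both SETD5 48 h lists, the 6 highest with SETD5-V5 in both replicates at 6 h, and every member at a gene of the 15 lists. Members and lists were chosen with earlier results of these data known. The rule was tested on simulated lists with planted overlaps.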

Additional observations from a re-analysis of the deposited data

How the results depend on the processing

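Over the alternatives tried, the H3K27ac share in SETD5 cells stayed lower at 48 h, by 26.3 to 56.9 points. The SETD5-V5 share was higher at 6 h by 13.9 to 20.9 points except with equal numbers of islands, where the mean difference was 0.318 points and replicate B went the other way. The exact permutation p was 0.333 to 1.00 and could not pass 0.05 with 2 libraries per group. The difference in endogenous SETD5, 0 points, ranged from -2.17 to 0.952. Taken as differences within letter (replicate block), the values were 43.9 and 17.6 points with exact sign-flip p = 0.500. Whether the letters pair the libraries was not settled. The A minus B difference in presence per island correlated between time points at 0.11 (empty vector), 0.01 (SETD5) and -0.08 (SETD5-V5). The share of members with SETD5-V5 was nonetheless higher in replicate A (21.0% at 0 h, 38.2% at 6 h) than in replicate B (6.27% and 24.4%). The SD given with a difference is that of the differences within letter. The number of members was 389 to 735, but 138 above the median score. Without replicate A or without replicate B, where the rule itself uses 1 replicate, it was 822 to 883, the H3K27ac difference 26.3 to 39.9 points, members absent from SETD5 at 48 h 49.3% to 54.6%, the SETD5-V5 difference 16.8 to 18.5 points, the H3K4me1 difference 13.3 to 13.6 points and that of endogenous SETD5 0.487 to 0.680 points. Members absent from both SETD5 lists at 48 h were 61.5% with an overlap of 50% or more, 67.1% with equal numbers of islands, 58.9% read in the promoter window and 42.8% above the median score. The H3K4me1 difference above the median score was 26.8 points. Starts with a CpG ratio of 0.6 or more were 18.4% in windows of 500 bases upstream and 100 downstream, 25.3% at protein-coding starts and 17.9% with 1 start per island, against 72.7%, 77.2% and 72.7% at kept promoters. List genes with a member numbered 18 to 23, and 16 to 18 of the main 18 were among them. The cause of these shifts was not tested. Leaving out the chromosome 4 block, using 1 start per island, exchanging the vectors, the low-score kept promoters and the ISRE were added after seeing the data.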

Other observations

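A family singled out after its values were seen was G-protein signalling. By symbol, 53 annotated genes were picked for G-protein alpha subunits, adenylyl cyclases, phospholipases C-beta and RGS proteins (GTPase activators). Of these genes, 25 had a tested promoter island, among them *Rgs9bp*, named as a binding protein of RGS9. A member was found at 10 of the 25, against 3.74% of protein-coding genes, for genes picked with these values known. These 10 were *Adcy3*, *Adcy4*, *Adcy7*, *Gnaq*, *Gnas*, *Plcb2*, *Plcb4*, *Rgs3*, *Rgs8* and *Rgs16*. All 10 had H3K4me1 at 0 h and 8 at 48 h, against 63.3% and 46.1% of all members. In SETD5 cells 8 and 6 had an H3K27ac island at 0 h and 2 and 2 at 48 h, against 86.4% and 42.5% of all members on average. The 2 at 48 h were *Adcy7* (1400 bp and 1600 bp) and *Adcy4* (1200 bp and 1000 bp), cyclases that make cyclic AMP. The member at *Gnas*, which codes for the stimulatory alpha subunit, had 0 h islands of 4400 bp and 3200 bp with empty vector and of 2400 bp and 2600 bp with SETD5 and none at 48 h, under SETD5-V5 islands of 20000 bp and 7000 bp at 0 h and 23200 bp and 19000 bp at 6 h.

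Of tested promoter islands at small RNAs without a protein-coding start 25.4% were members (49 of 193), at pseudogenes 29.1% (50 of 172), at processed transcripts 17.7% (39 of 220), at lincRNAs 8.38% (14 of 167) and at protein-coding starts 3.98% (389 of 9781). Many such genes exist in several copies, and their part in these shares was not tested. Some members lay close together. Neighbours at most 50000 bp apart formed runs of 3 around *Sorbs2* and *Gm16352* on chromosome 8 and of 4 around *Arvcf* on chromosome 16. On chromosome 4 there were runs of 3 around *Ccdc23*, *Lepre1* and *Cldn19* and, in the duplicated block, of 3 around *Gm10600*. In all, 14 protein-coding genes had more than 1 member. Runs and repeated genes were not counted for other promoter islands, so neither is shown to be particular to members.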
